A study of Mus musculus with 55 samples.

Results

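KMT2C sites without H3K4me3 are stretches of the genome where the histone methyltransferase KMT2C gave a peak in both lung PRM libraries and where neither H3K4me3 library of lung PRM had a peak. The KMT2C peaks of both libraries were merged into 17032 regions, of which 8994 held a peak of each library, and 2660 of these (29.6%) touched no H3K4me3 peak. The other 6334 (70.4%) touched one by at least 1 bp and serve as the comparison, named H3K4me3-bearing sites below. The members were selected on the KMT2C and H3K4me3 peaks of lung PRM, so both are descriptions here, while H3K4me1, H3K4me2, open chromatin and RNA were not used by the rule. No lung PRMK or liver PRM peak could add a site, so marks that go with KMT2C may be favoured in lung PRM. The part of this choice in the comparisons with lung PRM was not tested.

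KMT2C (MLL3) is a subunit of COMPASS-like complexes, which methylate lysine 4 of histone H3. Such complexes with KMT2C or its relative KMT2D place most H3K4me1 at enhancers, the distal elements that raise transcription of a gene from afar, while H3K4me3 marks active promoters and H3K4me2 is found at both. KMT2C is among the genes mutated in small cell lung cancer, a neuroendocrine tumour of the lung.

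The tumours were mouse organoid-derived small cell lung cancers grown in recipient mice. Lung PRMK carried guides against Trp53, Rb1 and Kmt2c and expressed Myc from a retroviral vector. Liver PRM and lung PRM carried the same alterations without the Kmt2c guide, and the liver samples came from metastases. Peak lists came from 2 libraries per group. They were made by CUT&Tag (antibody-directed cleavage of chromatin) for KMT2C and the 3 methylation states of H3K4, and by ATAC for open chromatin. No H3K4me2 or H3K4me3 list of liver PRM was used here. The ATAC libraries are labelled with culture day 3, a label that the other libraries lack. RNA came from 3 lung PRMK and 3 lung PRM libraries, with 18819262 to 24123055 and 12013253 to 19550439 counts. Whether replicates were separate animals is not given, so the spread between them may be technical. The labels also list a guide against Meis2 in replicate 1 and a scrambled guide in replicate 2 of lung PRMK for H3K4me2, H3K4me3 and KMT2C. They list no Kmt2c guide for lung PRMK RNA.

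Several libraries stood apart in how many peaks they hold, and the sequencing depth of the peak libraries is unknown. KMT2C lists held 187682 and 134561 peaks in lung PRMK, 65201 and 113129 in liver PRM, and 9949 and 16681 in lung PRM, so the longest lists came from tumours with the Kmt2c guide. Kmt2c RNA was 85.1, 84.4 and 105 CPM (counts scaled to library size) in lung PRMK, against 113, 187 and 67.6 CPM in lung PRM. These ranges overlap, and the RNA does not tell whether the edited gene still gives protein. ATAC lists held 565 and 54175 peaks in lung PRMK, 313 and 120 in liver PRM, and 64575 and 19815 in lung PRM. H3K4me1 lists were closer in length, with 38074 and 36910 peaks in lung PRMK, 29175 and 37783 in liver PRM, and 30398 and 27745 in lung PRM. Their peaks were narrower in lung PRMK replicate 2, at a median of 1419 bp, against 2734 bp in replicate 1 and 2974 and 2944 bp in lung PRM.

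The members had a median width of 2079.5 bp, from 304 to 15799 bp, near the 2135.5 bp of H3K4me3-bearing sites. Their KMT2C signal, the authors' total over the peak, had a median of 12125 in lung PRM replicate 1 and 11229 in replicate 2, below the 15677 and 14670 of H3K4me3-bearing sites. They lay a median of 17271.5 bp from the nearest H3K4me3 peak. The members closest to the limit of the rule were near Adcy1, at 38 bp from an H3K4me3 peak, and in Celsr1 and Fgd2, both at 50 bp. The sites left out with the shortest overlap were near Lmx1b, with 9 bp, Timd2, with 38 bp, and Ranbp3, with 53 bp.

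The members lay mostly away from gene starts. A protein-coding gene body covered at least part of 1711 of them (64.3%), against 83.2% of H3K4me3-bearing sites. The median distance to a protein-coding start was 39114 bp, and 1105 of 2577 (42.9%) were over 50 kb from one, against 16% of H3K4me3-bearing sites. A promoter window, from 250 bases before to 50 bases after the start of any gene in RefSeq (GRCm38.p6), was touched by 113 of these 2577 (4.38%), against 54.9% of H3K4me3-bearing sites.

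The few promoters among the members had another base composition than promoters at H3K4me3-bearing sites. The 134 windows on members had a GC content of 53.7 ± 6.51% (SD over windows) and a median of 5 CpG dinucleotides, against 62.6% and 23 CpG in 5019 windows at H3K4me3-bearing sites and 53.8% and 7 CpG in all 32851 windows. The ratio of observed to expected CpG was 0.223 in the median member window, against 0.801 at H3K4me3-bearing sites. It reached 0.6, the usual limit of a CpG island, in 5.22% of member windows, against 80.2%. Of the 134 windows on members, 84 belonged to genes that are not protein-coding, against 660 of the 5019 at H3K4me3-bearing sites. The sets of windows thus differ in kind of gene too, and some genes gave more than 1 window. The sequences below are shown because they let this contrast be read base by base. Each gives the 250 bases before a RefSeq start, 5′ to 3′ on the strand of the gene, with every CG in capitals, and all were picked after their values were seen. The first 4 lie on members, before Lrp8, a receptor for reelin and apolipoprotein E (chr4:107830703-107830952, plus strand, GRCm38), Sprr2a1, a cornified envelope protein (chr3:92215585-92215834, plus strand), Gpr146, an orphan receptor (chr5:139389654-139389903, plus strand), and Kif1a, a kinesin motor of axonal transport (chr1:93082481-93082730, minus strand). The last 2 lie at H3K4me3-bearing sites, before the circadian clock genes Nr1d1 (chr11:98775378-98775627, minus strand) and Per1 (chr11:69098699-69098948, plus strand). Each is 1 RefSeq start of its gene, and whether it is the main start was not examined.
Lrp8: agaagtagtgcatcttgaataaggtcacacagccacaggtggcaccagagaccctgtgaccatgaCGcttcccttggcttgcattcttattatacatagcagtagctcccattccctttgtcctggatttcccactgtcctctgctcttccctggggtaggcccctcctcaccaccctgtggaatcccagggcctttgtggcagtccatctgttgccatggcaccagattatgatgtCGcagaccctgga
Sprr2a1: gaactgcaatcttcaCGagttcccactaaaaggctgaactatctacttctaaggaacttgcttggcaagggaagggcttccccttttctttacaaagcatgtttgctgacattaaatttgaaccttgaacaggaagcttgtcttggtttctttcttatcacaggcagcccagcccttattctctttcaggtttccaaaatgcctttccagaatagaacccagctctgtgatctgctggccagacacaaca
Gpr146: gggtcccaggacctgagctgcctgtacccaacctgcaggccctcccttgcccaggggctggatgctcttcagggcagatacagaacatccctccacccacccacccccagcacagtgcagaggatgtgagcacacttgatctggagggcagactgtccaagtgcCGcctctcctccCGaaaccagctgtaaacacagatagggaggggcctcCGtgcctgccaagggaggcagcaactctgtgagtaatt
Kif1a: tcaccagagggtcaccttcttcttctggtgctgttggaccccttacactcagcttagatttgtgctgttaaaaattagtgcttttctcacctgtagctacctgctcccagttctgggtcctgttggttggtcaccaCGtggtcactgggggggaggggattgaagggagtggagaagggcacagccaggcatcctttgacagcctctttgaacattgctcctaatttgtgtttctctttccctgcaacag
Nr1d1: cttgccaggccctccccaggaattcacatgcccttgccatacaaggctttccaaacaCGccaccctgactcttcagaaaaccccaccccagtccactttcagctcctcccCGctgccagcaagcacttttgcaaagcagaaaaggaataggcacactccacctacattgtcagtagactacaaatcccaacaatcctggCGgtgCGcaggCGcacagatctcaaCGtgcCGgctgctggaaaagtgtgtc
Per1: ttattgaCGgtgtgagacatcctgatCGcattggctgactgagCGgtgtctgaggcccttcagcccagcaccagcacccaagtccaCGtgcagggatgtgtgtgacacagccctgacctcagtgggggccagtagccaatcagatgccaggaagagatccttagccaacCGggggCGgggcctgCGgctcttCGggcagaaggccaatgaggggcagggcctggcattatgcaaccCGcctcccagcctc
The printed bases hold 2 CG before Lrp8, 1 before Sprr2a1, 3 before Gpr146 and 1 before Kif1a, against 7 before Nr1d1 and 9 before Per1. KMT2C total signal in lung PRM was 46599 and 46965 on the Lrp8 member and 42087 and 36005 on the Sprr2a1 member. It was 735696 and 693188 on the Nr1d1 site and 350239 and 343301 on the Per1 site. Sprr2a1 has near-identical neighbours, so reads may be split among copies.

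Short motifs in the windows were counted on both strands, 18 in all, as letters only. The AP-1 motif TGANTCA was in 16.4% of member windows, against 3.71% at H3K4me3-bearing sites and 7.81% of all windows. The E-box CAGCTG was in 26.9%, against 13.9% and 16.3%, and the E-box CAGATG in 24.6%, against 9.66% and 17.2%. The TEAD motif GGAATG was in 21.6%, against 10.5% and 14.7%. Motifs rich in CG ran the other way, with the SP/KLF motif GGGCGGG in 8.96% of member windows, against 53.6% and 25.6%, and the ETS motif CCGGAAG in 5.97%, against 18% and 8.86%. These shares differ along with the base composition and kind of gene given above, whose part in them was not tested.

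MicroRNA hairpins lay on some members too. Of 1005 hairpins in RefSeq, 19 lay on a member and 82 on an H3K4me3-bearing site. The member chr13:63299403-63308929 in Fancc had a KMT2C total signal of 75889 and 38132 and holds the cluster of Mir23b, Mir27b and Mir24-1. Mir135a-1 lay on the member chr9:106153433-106157544, with 32945 and 32096, and Mir6987 on the member in Pcnx3 described below, the most strongly bound of those with a hairpin. One mature sequence per hairpin is shown, with the seed (bases 2 to 8), which pairs with target transcripts, in capitals, because these hairpins differ in what happened to H3K4me1 around them.
miR-23b-5p: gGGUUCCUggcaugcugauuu
miR-27b-3p: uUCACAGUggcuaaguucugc
miR-24-3p: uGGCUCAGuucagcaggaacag
miR-135a-5p: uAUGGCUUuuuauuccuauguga
miR-6987-5p: uGGGACAGggugacagggugag
No seed is shared among them. H3K4me1 covered the Fancc member in both libraries of lung PRMK, liver PRM and lung PRM. The Mir135a-1 and Mir6987 members had H3K4me1 in no lung PRMK library, in both liver PRM libraries and in both lung PRM libraries. The miRNAs themselves were not measured in the files used here.

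In lung PRM the members carried H3K4me1 and, less often, H3K4me2. H3K4me1 covered 83.8% and 80.6% of members in the libraries of lung PRM, against 51.5% and 46.7% of H3K4me3-bearing sites. H3K4me2 covered 19.2% and 30.8% of members, against 89.5% and 96.6% of H3K4me3-bearing sites. ATAC peaks touched 71.9% and 22.6% of members, against 90.8% and 77.4%, in lists of 64575 and 19815 peaks. Counting a mark when either library showed it, 966 members (36.3%) had H3K4me1 and ATAC without H3K4me2, 843 (31.7%) had all 3, 331 (12.4%) had H3K4me1 alone and 228 (8.57%) had none. Of H3K4me3-bearing sites, 49.2% had all 3 and 43.6% had H3K4me2 and ATAC without H3K4me1.

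H3K4me1 peaks on members were broader than other H3K4me1 peaks and ranked high in their lists, as did those on H3K4me3-bearing sites. Their median width was 4329 and 2122 bp in lung PRMK, 4325 and 5666 bp in liver PRM, and 5327 and 5051 bp in lung PRM. Other H3K4me1 peaks had a median of 2698 and 1401 bp in lung PRMK, 2409 and 2778 bp in liver PRM, and 2901 and 2871 bp in lung PRM. Ranked by signal within its list, the median H3K4me1 peak on a member stood at percentile 80.5 and 76.6 in lung PRMK, 84.6 and 88.7 in liver PRM, and 86.1 and 84.8 in lung PRM. On H3K4me3-bearing sites it stood at 78.0 and 78.2 in lung PRMK, 80.8 and 81.7 in liver PRM, and 80.2 and 81.0 in lung PRM. A broad peak meets an overlap of 1 bp more readily, and ranks took the peak with the highest total signal on each site. The way peaks were picked thus favours broad and high-ranking ones, and its part in these widths and ranks was not tested. The median H3K4me2 peak on a member stood at percentile 35.8 and 28.4 in lung PRM, against 78.3 and 82.3 for one on an H3K4me3-bearing site.

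A smaller share of members carried H3K4me1 in the lung PRMK libraries than in the lung PRM libraries. The share was 67.0% and 59.1% in the lung PRMK libraries, against 83.8% and 80.6% in the lung PRM libraries, and the groups did not overlap. The means were 63.1 ± 5.58% in lung PRMK and 82.2 ± 2.23% in lung PRM (SD, n = 2 each), a difference of -19.1 percentage points. A 2-sided exact permutation test over libraries gave p = 0.33, which is the smallest that 2 against 2 libraries allow. At H3K4me3-bearing sites the difference was -0.505 points, with 54.5% and 42.7% in lung PRMK and 51.5% and 46.7% in lung PRM. The difference between both kinds of site was -18.6 points, with an exact permutation p of 0.33, again the smallest possible. On 19 of 21 chromosomes both lung PRMK shares of members lay below both lung PRM shares, the exceptions being X and Y. All chromosomes were read from the same libraries, so this count adds no replicates. The H3K4me1 lists covered 148 and 77.4 Mb in lung PRMK and 125 and 111 Mb in lung PRM. The parts of cover, and of the choice of sites in lung PRM, in the H3K4me1 shares were not tested.

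**Figure D1:**
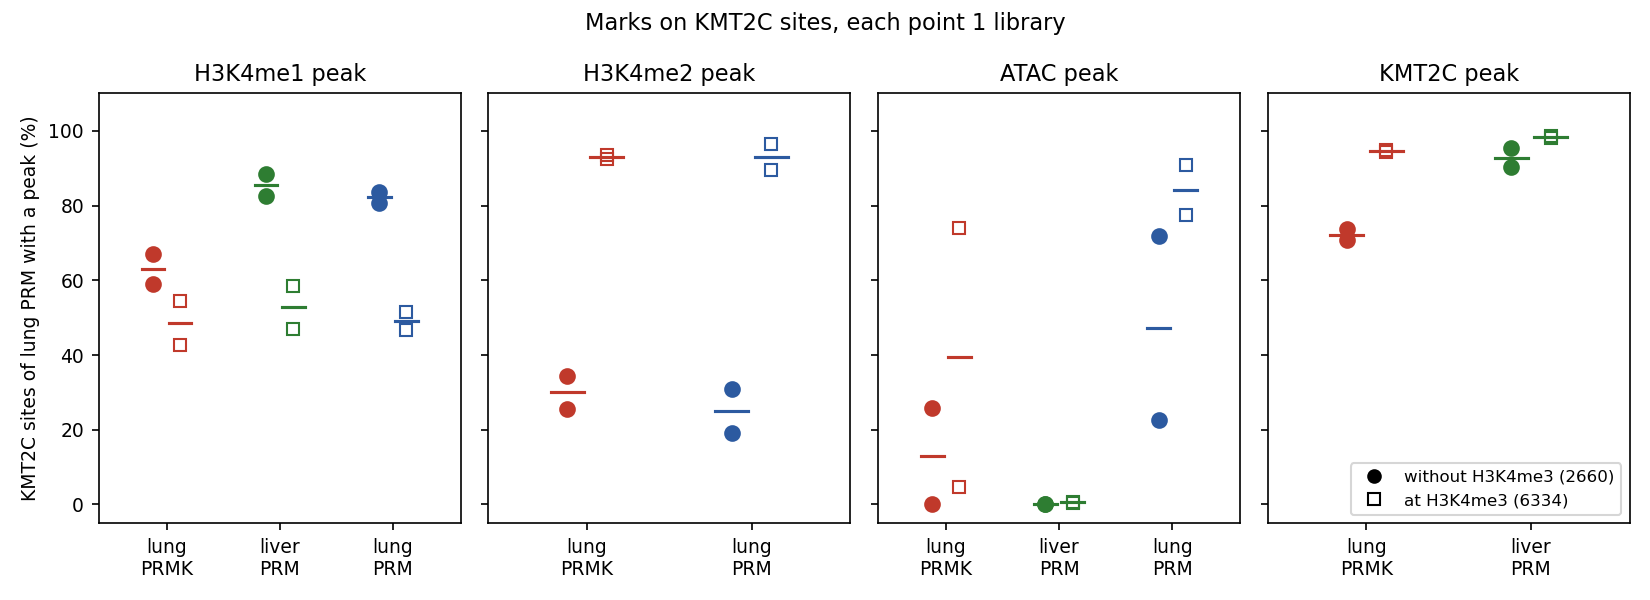
Share of KMT2C sites of lung PRM that carry a peak, by mark and group, where each point is 1 library, short lines are means of 2 libraries, filled circles are the 2660 sites without H3K4me3 and open squares the 6334 H3K4me3-bearing sites. H3K4me1 on sites without H3K4me3 sits at 67.0% and 59.1% in lung PRMK, below all 4 libraries of liver and lung PRM, while the ATAC libraries of lung PRMK, and those of lung PRM, lie far apart.

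Site by site, 2111 members had H3K4me1 in both lung PRM libraries. Of these, 1365 (64.7%) had it in both lung PRMK libraries, 307 (14.5%) in 1 and 439 (20.8%) in neither, and the last are called lost. Lost sites made up 16.5% of all 2660 members, against 14.1% of all 51792 H3K4me1 regions in the 4 lists and 3.93% of H3K4me3-bearing sites. The reverse pattern, H3K4me1 in both lung PRMK libraries and no lung PRM library, was seen at 74 members (2.78%), against 15.6% of all regions. Members were placed by KMT2C peaks of lung PRM, while all regions include every H3K4me1 region seen in lung PRMK alone. The lost and gained shares divide by all sites, and members carried the mark in lung PRM more often than the regions at large. Of those with H3K4me1 in both lung PRM libraries, 20.8% of members were lost, against 30.6% of all regions (7292 of 23824) and 8.77% of the 2840 such H3K4me3-bearing sites. Of those with it in no lung PRM library, 18.5% of members (74 of 399) had it in both lung PRMK libraries, against 37.5% of all regions. A region of the 4 lists with no lung PRM peak has a lung PRMK peak by construction, while a member need have none. The gained shares of members and of all regions are thus not like for like, and nothing is read from their difference.

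Counted over H3K4me1 regions rather than KMT2C sites, loss was less common on members than elsewhere. Lung PRM had 24652 H3K4me1 regions with a peak in both libraries, of which 29.6% were lost in lung PRMK. Of 1517 such regions that lay on a member and without H3K4me3, 324 (21.4%) were lost, against 5749 of 14752 (39.0%) that had neither H3K4me3 nor a KMT2C peak in lung PRM. Regions on members were wider, with a median of 5284 bp against 3287 bp. Within a range of widths the order was the same, with 42.6% on members and 50.1% elsewhere at 1 to 3 kb, 25.2% and 35.6% at 3 to 6 kb, and 8.82% and 16.1% at 6 kb or wider. Regions of one library pair share their libraries, so these shares describe the lists and no test was made over regions.

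**Figure D2:**
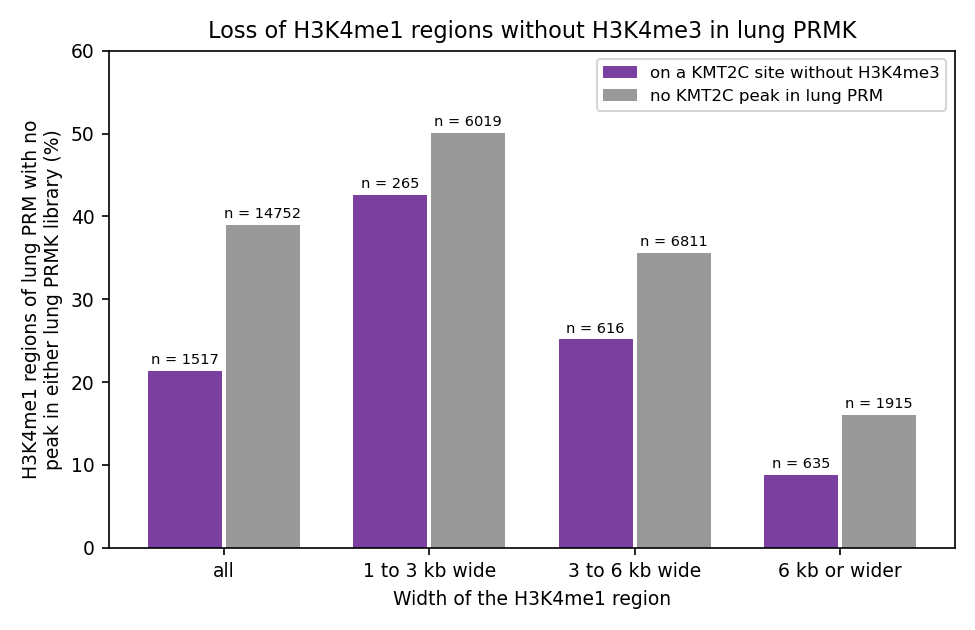
Share of H3K4me1 regions of lung PRM without H3K4me3 that had no H3K4me1 peak in either lung PRMK library, by width of the region in kb, with the number of regions above each bar. Purple bars (regions on a KMT2C site without H3K4me3) stand below grey bars (regions with no KMT2C peak in lung PRM) in each class, and both decline with width.

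Distance from H3K4me3 went along with the lung PRMK share. Of the 279 members under 2 kb from an H3K4me3 peak, 76.0% and 71.0% had H3K4me1 in lung PRMK, 88.9% and 92.1% in liver PRM, and 87.5% and 84.2% in lung PRM. Of the 571 members 50 kb or more away, 57.8% and 47.1% had it in lung PRMK, 82.5% and 88.4% in liver PRM, and 83.7% and 81.1% in lung PRM. The far share minus the near share was -18.2 and -23.9 points in the lung PRMK libraries, -6.40 and -3.67 points in liver PRM, and -3.74 and -3.14 points in lung PRM. The difference of these gaps between lung PRMK and lung PRM was -17.6 points, with an exact permutation p of 0.33 over 2 against 2 libraries, the smallest possible. Of H3K4me1 regions with no KMT2C peak 30.0% were lost under 2 kb, 29.6% at 2 to 10 kb, 34.5% at 10 to 50 kb and 48.2% at 50 kb or more, while regions on members showed no steady course, with 23.9% lost under 2 kb (16 of 67), 13.3% at 2 to 10 kb, 20.7% at 10 to 50 kb and 29.6% at 50 kb or more.

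**Figure D3:**
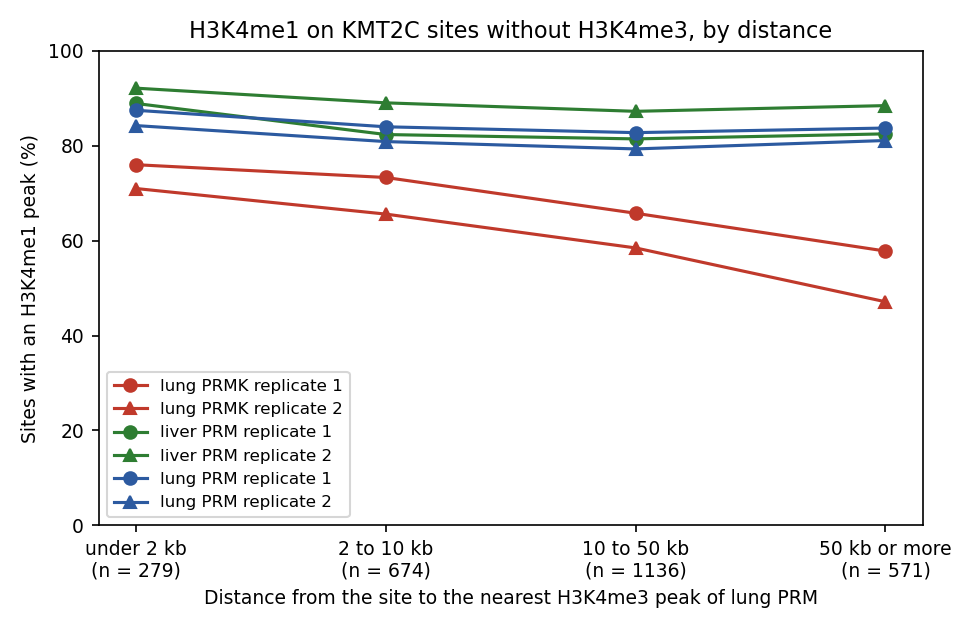
Share of the 2660 sites with an H3K4me1 peak against their distance in kb to the nearest H3K4me3 peak of lung PRM, 1 line per library. Both lung PRMK lines (red) decline with distance to 57.8% and 47.1%, while the liver PRM (green) and lung PRM (blue) lines lie between 79.3% and 92.1%.

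Nearly all members with H3K4me1 in both lung PRM libraries had it in liver PRM. The share of members was 82.7% and 88.5% in liver PRM, against 83.8% and 80.6% in lung PRM, so the groups overlapped. The means were 85.6 ± 4.09% in liver PRM and 82.2 ± 2.23% in lung PRM (SD, n = 2 each), a difference of 3.38 points with an exact permutation p of 0.667. Of the 2111 members with H3K4me1 in both lung PRM libraries, 7 (0.332%) had it in neither liver PRM library, which is 0.263% of all members, against 1.02% of all regions in these lists. Of the regions with it in both lung PRM libraries, 1.68% had it in neither liver PRM library. Both comparisons share the lung PRM libraries.

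The share of members with H3K4me2 overlapped between the groups. It covered 34.4% and 25.7% of members in lung PRMK, against 19.2% and 30.8% in lung PRM. The means were 30.1 ± 6.19% in lung PRMK and 25 ± 8.16% in lung PRM (SD, n = 2 each), a difference of 5.04 points with an exact permutation p of 0.667. That difference turned to -0.733 points without lung PRM replicate 1. Of 329 members with H3K4me2 in both lung PRM libraries, 47 had it in no lung PRMK library, which is 1.77% of all members against 1.36% of all H3K4me2 regions. As a share of those that had it in both lung PRM libraries, 14.3% of members were lost, against 3.01% of all H3K4me2 regions (489 of 16256). H3K4me2 in both lung PRMK libraries and no lung PRM library was seen at 159 members (5.98%), against 8.07% of all regions. As for H3K4me1, all regions include those seen in lung PRMK alone, so nothing is read from the difference of these gained shares.

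H3K4me3 appeared on few members in lung PRMK. It touched 3.61% and 1.32% of members in the lung PRMK libraries, against 80.1% and 77.7% of H3K4me3-bearing sites. It was in both lung PRMK libraries at 27 members (1.02%), against 1.26% of all H3K4me3 regions gained in this way, and since the rule chose members for its absence in lung PRM nothing more can be read from that count.

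Open chromatin could not be compared between groups with these lists. ATAC peaks touched 0.188% and 25.9% of members in lung PRMK, 0.113% and 0.0376% in liver PRM, and 71.9% and 22.6% in lung PRM. The libraries under 1% were those with 565, 313 and 120 peaks, and the part of list length in these shares was not tested. The means were 13 ± 18.2% in lung PRMK and 47.3 ± 34.8% in lung PRM (SD, n = 2 each), and the difference of -34.2 points had an exact permutation p of 0.667. ATAC was in both lung PRM libraries and no lung PRMK library at 358 members (13.5%), against 3.68% of all ATAC regions. These were 64.4% of the 556 members with ATAC in both lung PRM libraries, against 37.2% of such regions. The lung PRMK library with 565 peaks touched 5 members, so this count rests almost wholly on the other lung PRMK library. The longer lung PRMK list lay between the lung PRM libraries on members, at 25.9%.

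KMT2C itself was listed again on most members in both other groups. KMT2C peaks touched 73.6% and 70.8% of members in lung PRMK and 90.3% and 95.4% in liver PRM, against 95.0% and 94.4%, and 98.1% and 98.7%, of H3K4me3-bearing sites. No KMT2C peak was left in lung PRMK at 446 members (16.8%), and in liver PRM at 87 (3.27%), against 0.258% and 0.127% of all KMT2C regions in the compared lists. Most of those regions had no lung PRM peak, and of those with a peak in both lung PRM libraries 7.11% and 1.93% had none in lung PRMK and in liver PRM. Since members had to have a peak in both lung PRM libraries, nothing is read from these counts. Peaks were far more numerous in lung PRMK, and with each KMT2C list held to its 9949 strongest peaks the shares of members were 17.4% and 19.0% in lung PRMK and 53.0% and 51.7% in liver PRM. The same cut left lung PRM replicate 2 with a peak on 78.0% of members and 88.3% of H3K4me3-bearing sites. On H3K4me3-bearing sites the shares became 62.0% and 67.0% in lung PRMK and 78.7% and 81.3% in liver PRM.

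The fates of KMT2C and H3K4me1 in lung PRMK went together. Of the 2111 members with H3K4me1 in both lung PRM libraries, 1331 had KMT2C in both lung PRMK libraries, and 10.2% of these had lost H3K4me1. Of the 470 with KMT2C in 1 lung PRMK library 30.6% had lost it, and of the 310 with none 51.3%. H3K4me1 was in both liver PRM libraries at 97.7%, 96.8% and 96.1% of the same 3 sets. Strongly bound members held H3K4me1 more often in each group. Among the 665 members with the highest KMT2C signal in lung PRM the share was 77.0% and 71.9% in lung PRMK and 93.2% and 90.8% in lung PRM. Among the 665 with the lowest it was 60.6% and 52.2% in lung PRMK and 76.2% and 74.9% in lung PRM. The members with the highest signal were also wider, with a median of 3152 bp against 1676 bp. The part of width in these shares was not tested.

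The most strongly bound member, chr2:92420642-92430174, lay in Cry2, a repressor of the circadian clock, 132 bp from an H3K4me3 peak. Its KMT2C total signal was 215086 and 183592. The highest signal of an H3K4me1 peak overlapping it was 67 and 41 in lung PRMK, 83 and 82 in liver PRM, and 116 and 125 in lung PRM. Highest signals, here and below, are the authors' values for the whole overlapping peak, which can reach beyond the member. No scale between libraries is given, so they are read within a library only. All 6 libraries had a peak there, and Cry2 RNA was 40.6, 42.2 and 38.5 CPM in lung PRMK, against 44.2, 37.6 and 39.7 CPM in lung PRM.

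Among the 12 members with the highest KMT2C signal, those in Pcnx3 and near Ece1 lost H3K4me1 in lung PRMK, and the one in Efl1 had none in any group. Pcnx3 encodes a membrane protein of the pecanex family, and its member, chr19:5676496-5683959, had a KMT2C total signal of 165998 and 139022. There the highest H3K4me1 signal was 24 and 22 in liver PRM and 13 and 14 in lung PRM, with no peak in lung PRMK, although KMT2C was listed there in both lung PRMK libraries with 41 and 54. Ece1, the enzyme that activates endothelins, lay 4935 bp from the member chr4:137970164-137982970, whose H3K4me1 signal was 41 and 31 in liver PRM and 44 and 44 in lung PRM, with no peak in lung PRMK. The Efl1 member, chr7:82770602-82772223, had the second highest signal, 190818 and 194067, but no H3K4me1, H3K4me2 or ATAC peak in any library. KMT2C was listed there at 939 and 1084 in liver PRM and in 1 of the 2 lung PRMK libraries, at 21. Efl1 encodes a GTPase of ribosome maturation.

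The other members of this set kept H3K4me1 in both lung PRMK libraries. They lay in Pitpnm2, a phosphatidylinositol transfer protein (chr5:124212389-124228187), in Rara, the retinoic acid receptor alpha (chr11:98927113-98934197), in Kalrn, a guanine nucleotide exchange factor (chr16:34385071-34387599), and in Cplx2, a regulator of synaptic vesicle fusion (chr13:54308841-54313716). Others were in Baiap2, near Tpra1 and, as a pair, near Mbip, at 65080 and 3689 bp from the gene. Kalrn was the exception in liver PRM, where 1 of 2 libraries had H3K4me1 on it.

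At 44 members no lung PRMK or liver PRM library had a KMT2C peak. The strongest of these lay near LOC665918 on chromosome Y (43030 and 55511), near Hjurp, the chaperone of centromeric histone H3 (22487 and 38212), in Anpep, an aminopeptidase (16719 and 27258), in Sgce, a sarcoglycan (15629 and 22034), in Rora, a nuclear receptor of the clock (16550 and 18810), and near Asmt on X (14317 and 19309). H3K4me1 moved in different ways on them. The Sgce member had it in no lung PRMK library and in both liver PRM and lung PRM libraries, while the Anpep member had it in both lung PRMK libraries and in no liver PRM or lung PRM library.

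Several genes had many members nearby. They had 1650 different nearest genes, 61 of which had 5 or more members. Msi2, an RNA-binding regulator of progenitor cells, had 20, and none of its 19 with H3K4me1 in both lung PRM libraries lost it. Rbfox3 (NeuN), a neuronal splicing factor, had 13 and none lost. Tcf4, an E protein transcription factor, had 17 members, of which 9 of the 15 with H3K4me1 lost it. Grik3, a kainate receptor subunit, had 7, and 6 of them lost it. These genes are singled out after their values were seen. With gaps of up to 12.5 kb joined, 95 stretches held 3 or more members, 344 in all. The largest held 10 members over 68.7 kb at Mgll, the monoacylglycerol lipase gene (chr6:88726018-88794691), and the next held 8 at Casz1, a zinc finger factor (chr4:148904513-148958158).

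The members were spread unevenly over chromosomes. Chromosome 11 held 343, or 21.3 per 100 genes, against a median of 14.9 per 100 genes over 17 chromosomes with 20 or more members. Chromosome 10 held 10 (0.999 per 100 genes), chromosome 14 held 17 (2.00) and X held 13 (1.35). On chromosome 10 members were 5.59% of its 179 KMT2C sites. The KMT2C lists themselves differ in this respect, with 2.76% and 2.27% of peaks on chromosome 14 in lung PRMK, 0.985% and 1.20% in liver PRM, and 0.905% and 1.04% in lung PRM. Chromosome 11 took 6.64% and 6.91% in lung PRMK, 9.09% and 8.83% in liver PRM, and 12.1% and 11.1% in lung PRM. H3K4me1 peaks on chromosome 14 were 2.67% and 2.05% in lung PRMK, 2.28% and 2.58% in liver PRM, and 2.64% and 2.44% in lung PRM, with the groups overlapping. What sets the spread of KMT2C peaks over chromosomes was not tested.

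**Figure D4:**
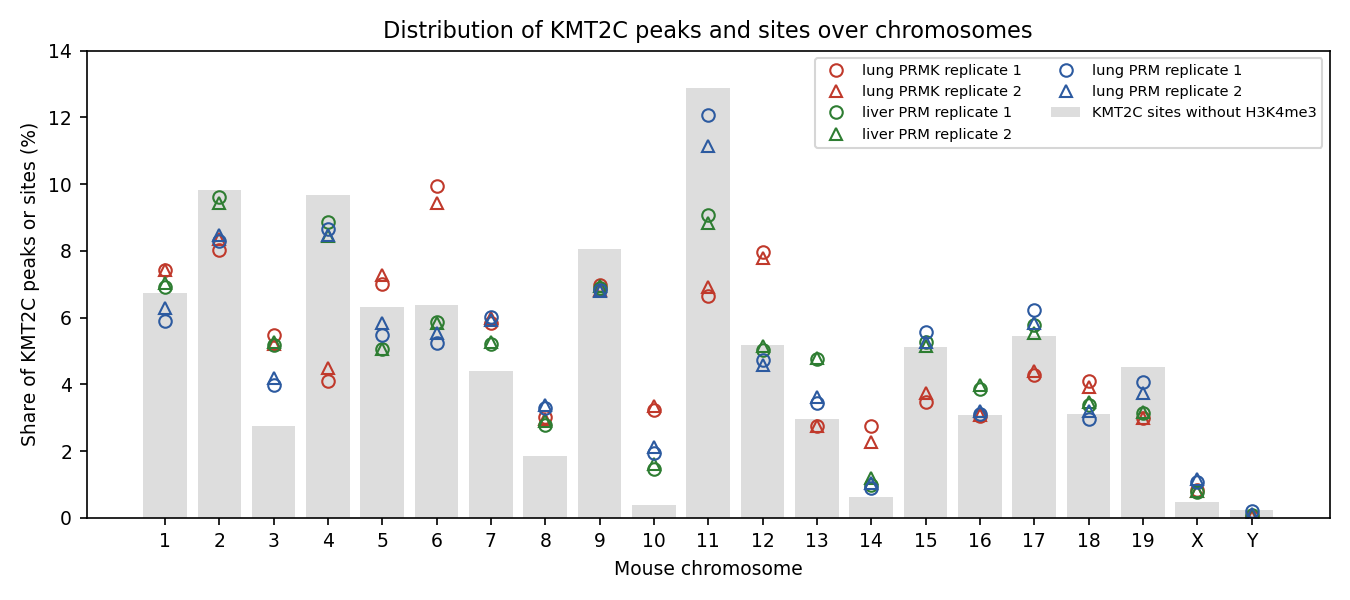
Share of each library's KMT2C peaks (points) and of the 2660 sites without H3K4me3 (grey bars) on each mouse chromosome, in percent. Lung PRMK libraries (red) lie above lung PRM libraries (blue) on chromosomes 6, 10 and 14 and below them on 4 and 11, and 343 of the sites lie on 11.

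The counts of members whose nearest gene, within 100 kb, was in the lists are small and carry no test. A member nearer to another gene was not counted. Of 14 TGF-beta and epithelial-mesenchymal transition genes, 4 had 8 members, all with H3K4me1 in both lung PRM libraries, and 5 lost it in lung PRMK. The lost ones were both members of Smad6, an inhibitory SMAD, both near Snai1, a repressor of E-cadherin, and 1 of 3 near Smad3, which carries the TGF-beta signal. The member of Smad7, another inhibitory SMAD, kept it. The stronger Smad6 member, chr9:63966664-63970360, had a KMT2C total signal of 39240 and 35268, and its highest H3K4me1 signal was 16 and 29 in liver PRM and 29 and 16 in lung PRM, with no peak in lung PRMK. Of the adhesion and axon guidance list, 6 of 21 genes had 20 members, all with H3K4me1, and 4 lost it. Of the Notch and YAP list, 5 of 20 genes had 13 members, and 2 of the 12 with H3K4me1 lost it. Loss over all members with H3K4me1 in both lung PRM libraries was 20.8%.

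Lists of chromatin genes differed in how many members lay near them. Arid1b, Chd7, Crebbp and Smarca4, parts of enhancer coactivator complexes, had 10 members, out of 10 genes in that list, and none lost H3K4me1. No member had Meis1 or Meis2 as its nearest gene within 100 kb. The COMPASS list had members near Wdr5 alone, a core subunit, where 1 of 2 with H3K4me1 lost it. The DNA methylation list had 4 members, at Dnmt3a, Dnmt3b and Uhrf1, and the one near Dnmt3b lost H3K4me1. Of the neuroendocrine and tuft transcription factors, Pou2f3, Prox1 and St18 had 4 members, and 1 of 3 with H3K4me1 lost it. Atf3 and Fos, of the AP-1 list, had 1 each. The Fos member had H3K4me1 in 1 of 2 lung PRMK libraries and in both lung PRM libraries, and the Atf3 member had it in both lung PRMK libraries and in no lung PRM library. No member had its nearest gene, within 100 kb, among the H3K4 demethylase, Polycomb, tumour driver or housekeeping chromatin genes listed. The same held for the neuroendocrine, hepatocyte and immune marker genes. Markers of other cells were met at Foxj1 (airway cells), with 1 member, Pdgfrb (fibroblasts), with 2, and Pecam1 (endothelium), with 1.

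Dnmt3a, a de novo DNA methyltransferase, had 2 members. The first, chr12:3886586-3888761, lay in the gene 2983 bp from a start, with a KMT2C total signal of 27303 and 27129. H3K4me1 covered it in every library, with a highest signal of 103 and 52 in lung PRMK, 50 and 72 in liver PRM, and 92 and 80 in lung PRM. H3K4me2 did too, with 99 and 84 in lung PRMK and 104 and 81 in lung PRM. KMT2C was listed there in both lung PRMK libraries with 25 and 29 and in liver PRM with 57 and 44. The second, chr12:3928829-3931541, lay 14386 bp from the gene, with 40163 and 24882, and had no H3K4me1 peak in any library. Dnmt3a RNA was 328, 334 and 341 CPM in lung PRMK, against 218, 238 and 102 CPM in lung PRM, so the groups did not overlap. Its log2 fold change was 0.85 ± 0.34 (SE), and the adjusted p was 0.281 in edgeR's quasi-likelihood test and 0.162 in DESeq2. All lung PRMK libraries lay above all lung PRM libraries in 15.1% of all genes tested.

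RNA of the nearest genes did not stand apart from RNA of all genes. Of 1650 nearest genes, 1327 were tested, and edgeR called 0 at an adjusted p under 0.05, as it called 0 (0%) of all 13914 genes tested. At an unadjusted p under 0.05, 93 of them were higher in lung PRMK (7.01%) and 122 lower (9.19%), against 7.03% and 10.1% of all genes. DESeq2, which gave an adjusted p to 1395 nearest genes and 14869 genes in all, called 49 nearest genes higher (3.51%) and 62 lower (4.44%), against 3.97% and 4.6% of all genes. The median log2 fold change was -0.01 over the nearest genes and -0.02 over all genes. The 299 tested genes next to a member that lost H3K4me1 had a median of -0.09, with 19 higher and 25 lower at an unadjusted p under 0.05. The 730 next to members that kept it had 0.03, with 58 higher and 63 lower. Without lung PRM library 4, edgeR called 59 nearest genes, 30 higher and 29 lower (4.34%), against 5.59% of all genes. RNA from bulk samples cannot tell fewer cells of a type from less RNA per cell. Of the COMPASS list 16 of 17 genes were tested and 0 were called, with a median log2 fold change of -0.14, and edgeR called 0 in each of the other lists. The summed neuroendocrine markers were 5130, 3813 and 5860 CPM in lung PRMK, against 5696, 3123 and 122 CPM in lung PRM, so lung PRM library 6 stood apart. Immune markers, 6 of 8 tested, summed to 479, 532 and 703 CPM in lung PRMK, against 506, 6.05 and 94.5 CPM in lung PRM. Fibroblast markers, 8 of 9 tested, summed to 93.9, 300.3 and 70.7 CPM in lung PRMK, against 345, 3.14 and 222 CPM in lung PRM. Endothelial markers, 3 of 7 tested, summed to 78.8, 23.3 and 200 CPM in lung PRMK, against 38.5, 0.561 and 2.76 CPM in lung PRM. Library 5 of lung PRM was the lowest in all 3 of these lists, and the median log2 fold change was 2.87 over the endothelial and 1.38 over the immune markers. Lung epithelial markers, 4 of 10 tested, summed to 316, 437 and 290 CPM in lung PRMK, against 674, 661 and 3.38 CPM in lung PRM. The part of other cell types in the RNA values was not tested. Without library 5 or library 6 of lung PRM, edgeR called 0 nearest genes.

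The nearest genes with the lowest p are named as a description, since edgeR called none. Among those higher in lung PRMK, Edn3, a ligand of endothelin receptors, had 123, 266 and 72.1 CPM in lung PRMK, against 1.78, 0.112 and 0 CPM in lung PRM. Its log2 fold change was 7.83 ± 1.42 (SE), at adjusted p-values of 0.19 (edgeR) and 1.23e-07 (DESeq2). Zfp618, a zinc finger protein, had 26.7, 12.7 and 56.5 CPM in lung PRMK, against 0.418, 0.729 and 0.534 CPM in lung PRM. Its log2 fold change was 5.82 ± 0.73 with an edgeR adjusted p of 0.158, and the member in Zfp618 is one of the 74 where H3K4me1 was gained. Thsd4, Plekhg5, Iqsec2, Lrpap1 and Gnb2 followed, with log2 fold changes of 1.27 to 2.32. None of these genes had overlapping groups. All lung PRMK libraries lay above all lung PRM libraries in 13.8% of nearest genes and 15.1% of all genes tested.

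Among those lower in lung PRMK, Nrp2, a receptor for semaphorins and VEGF, had 22, 43.7 and 28.1 CPM in lung PRMK, against 140, 318 and 240 CPM in lung PRM. Its log2 fold change was -2.89 ± 0.42 (SE), at adjusted p-values of 0.181 (edgeR) and 1.75e-07 (DESeq2), and none of its 3 members lost H3K4me1 in both lung PRMK libraries. Sprr2a1 had 10.9, 11.2 and 5.43 CPM in lung PRMK, against 26.1, 42.0 and 82.3 CPM in lung PRM, and both its members lost H3K4me1. Tfrc, the transferrin receptor, had 146, 137 and 196 CPM in lung PRMK, against 394, 415 and 697 CPM in lung PRM, and its member, 9805 bp from the gene, lost H3K4me1. Sprr2a2, a close copy of Sprr2a1, and Dnah17, Snx10, Rbm38 and Fabp5 had log2 fold changes of -2.49 to -1.08. All groups were apart in these genes as well. All lung PRMK libraries lay below all lung PRM libraries in 11% of nearest genes and 14.6% of all genes tested.

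**Figure D5:**
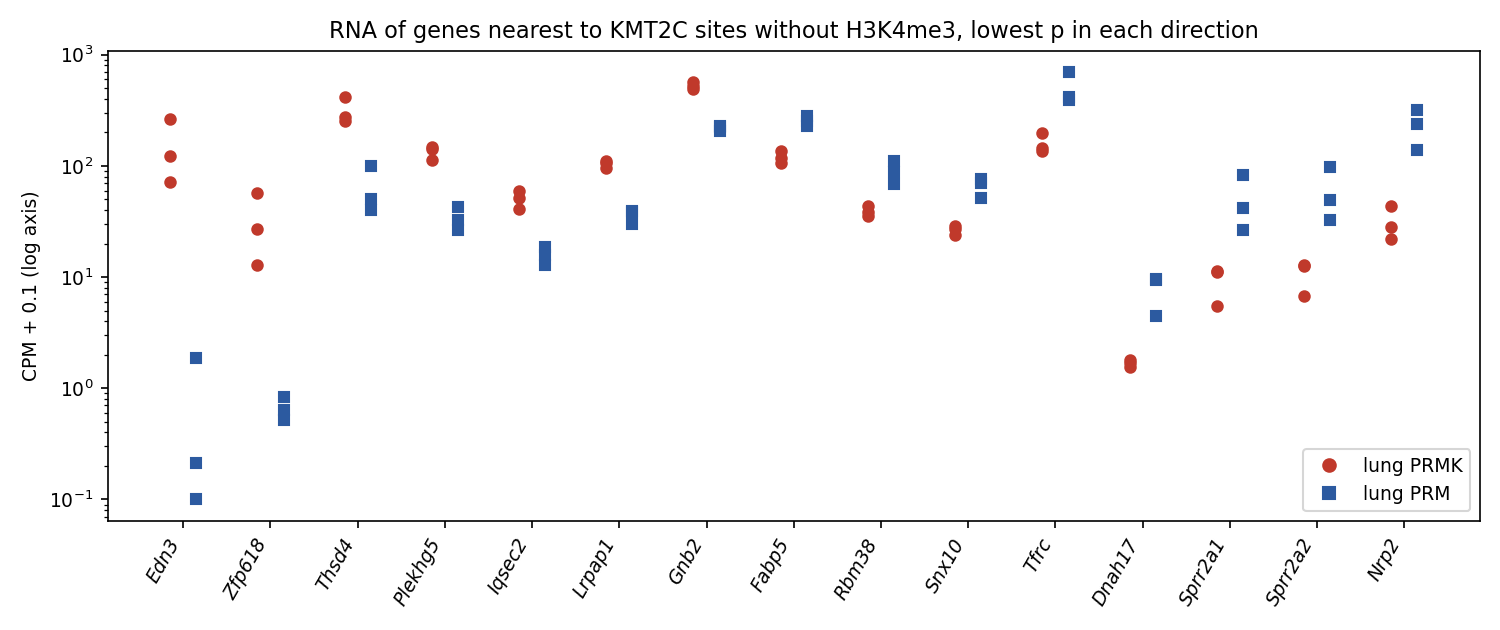
RNA of nearest genes with the lowest edgeR p, 7 higher and 8 lower in lung PRMK, as CPM + 0.1 on a log axis, with lung PRMK libraries as red circles and lung PRM libraries as blue squares, 3 each. The libraries of a gene do not overlap between groups, and Edn3 has the widest gap, though edgeR called none at an adjusted p under 0.05. Such separation was seen in 15.1% (higher) and 14.6% (lower) of all genes tested.

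Of the genes with many lost members, Tcf4 had 353, 524 and 159 CPM in lung PRMK, against 1036, 1126 and 651 CPM in lung PRM. Its log2 fold change was -1.44 ± 0.47 (SE), at adjusted p-values of 0.236 (edgeR) and 0.0613 (DESeq2). Grik3 had 1.13, 3.76 and 0.119 CPM in lung PRMK, against 53.5, 80.8 and 0.356 CPM in lung PRM, so lung PRM library 6 fell among the lung PRMK libraries. Its log2 fold change was -4.76 ± 1.89 (SE), at adjusted p-values of 0.281 (edgeR) and 0.0261 (DESeq2). Msi2, whose members all kept H3K4me1 in at least 1 lung PRMK library where lung PRM had it in both, had 265, 311 and 268 CPM in lung PRMK, against 549, 265 and 189 CPM in lung PRM. Its groups overlapped.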

How the data were processed

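Peak lists of 20 lung and 6 liver libraries and raw counts per gene of 6 RNA libraries were analysed. Per the submitters' processing notes, the authors aligned with Bowtie2 (2.2.1 for ATAC) to mm10, called CUT&Tag peaks with SEACR and aligned RNA with STAR 2.6.0a to GRCm38. The ATAC caller, the SEACR control and the depth of the peak libraries are not given in the sources used here. Deposited peak lists hold the authors' signal (total and highest) per peak and, for ATAC, a score, which was used only to rank peaks. The deposited RNA values are raw counts.

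Peaks were called per library. A library counted as present on a region at 1 bp of overlap. Shares were compared by 2-sided exact permutation over libraries (Python 3.11.15, numpy 2.4.6, pandas 2.3.3, scipy 1.17.1, figures with matplotlib 3.10.9). RNA counts were tested with edgeR 4.0.16 (quasi-likelihood, TMM, Benjamini-Hochberg over all genes, threshold 0.05) and, as an alternative, DESeq2 1.42.0, in R 4.3.3. Both steps were tested on simulated data. The columns of lung PRM RNA are numbered 4 to 6 and the titles 3 to 5, so libraries are named by column.

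The sites and the 19 gene lists were chosen with earlier results of these data known. Named regions were the 12 with the highest KMT2C signal, up to 6 with no KMT2C peak outside lung PRM, up to 3 per list and those at the edge of the rule. Named genes were the 8 lowest edgeR p in each direction among nearest genes with a mean of at least 1 CPM. Some results of these rules are not reported here. Sequence at peak centres was planned, but no genome was used here, so promoter windows and miRNAs of RefSeq (GRCm38.p6) are shown. Start sites of chromosome 18, which holds 83 members, were not used here, and exons, introns and UTRs were not annotated. IgG, bisulfite, single-cell and S-adenosylmethionine data were not analysed here.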

Additional observations from a re-analysis of the deposited data

How the results depend on the processing

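The H3K4me1 difference between lung PRMK and lung PRM kept its direction under each alternative run, from -25.1 to -15.2 percentage points, and so did that of liver PRM and lung PRM, from 0.489 to 6.28, and that of ATAC, from -58.8 to -0.169. The ATAC value of -0.169 came from lists held to 565 peaks and says little about direction. There the shares were 0.188% and 0.113% in lung PRMK, against 0.639% and 0% in lung PRM, so the groups overlapped. The H3K4me2 difference turned to -1.69 points with lists held to the shortest, and ran from -0.733 to 10.8 when 1 library was left out. KMT2C cover of members in lung PRMK, 72.2% on average (70.8% to 73.6% per library), was 37.3% where peaks had to cover 50% of the member, 18.2% with lists held to the shortest and 80.1% for members made from the 50% of KMT2C peaks with the highest signal. In liver PRM, 92.8% (90.3% to 95.4% per library) became 84.9%, 52.3% and 96.7%. The number of members, 2660, was 943 from the 50% of KMT2C peaks with the highest signal and 2411 to 2556 under the others. Called nearest genes were 0 by edgeR, 111 by DESeq2, and 0 to 59 when 1 RNA library was left out.

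With the replicate block, the H3K4me1 difference of -19.1 points had an exact p of 0.5, the smallest that 2 pairs allow, and the others, 3.38, 5.04 and -34.2 points, had p = 1. The labels do not say that a number marks a shared animal. No paired analysis was possible for RNA because the titles of both groups share only 1 replicate number. With 2 libraries per group no share could pass 0.05, and the unknown depth and unequal list lengths limit every comparison of KMT2C and ATAC.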
